A study of Mchenga conophoros and Petrotilapia sp. 'chitimba' with 16 samples.

Results

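RNA bound to ribosomes carrying phosphorylated ribosomal protein S6 (pS6) was compared with total brain RNA in Mchenga conophoros (MC), a cichlid fish. The comparison takes every MC library of the series, 8 of 16: 4 pS6 immunoprecipitates (IP) and the 4 matching inputs, paired by fish. Each pair came from the whole brain of 1 adult male. Fish 9 and 21 faced a mirror, placed in their home tank for 15 min, and fish 10 and 22 were controls; brains were taken 90 min later. Fish 9 and 10 belonged to batch a and fish 21 and 22 to batch b, so batch and condition cross. Both conditions were pooled for IP against input, with 4 fish in each fraction. The other 8 libraries, from 4 males of Petrotilapia sp. 'chitimba' (PC) handled in the same way, serve only to show where MC differs; according to the series, the species differ in the aggression that a mirror elicits. Unless said otherwise, values per fish follow the order mirror fish 9, mirror fish 21, control fish 10, control fish 22.

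Phosphorylation of S6, a protein of the small ribosomal subunit, rises in neurons after strong activity. In PhosphoTRAP an antibody to pS6 pulls these ribosomes out of a brain lysate together with the messenger RNA they carry, so the IP is read against the input of the same brain. Messages translated in the cytosol, or on the endoplasmic reticulum if those ribosomes are dissolved and carry pS6, can be recovered in this way. Messages made and translated inside mitochondria use separate ribosomes that hold no S6. The IP is not a purification of cells: glia also have S6, and in whole-brain RNA fewer cells of a type and less RNA per cell cannot be told apart.

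The IP libraries were shallower and far less complex than the inputs. They held 1872019, 9147304, 2715091 and 9263533 counts, against 10456641, 10904974, 10665038 and 10073251 counts in the inputs. Batch a gave both of the shallow IP libraries. At least 1 count was found at 3714, 8814, 4607 and 8482 of 61384 assembled loci in IP, against 34760, 30469, 34188 and 33077 in input. IP had fewer loci in 4 of 4 fish, with a mean difference, IP minus input, of -26719.2 loci (SD 4362, n = 4), and the exact two-sided sign-flip permutation test gave p = 0.125, the smallest value that 4 fish allow. With every library thinned to the shallowest depth the mean difference was -23006 loci.

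Detection in IP followed the input level of a locus. Among loci with a mean input level of 10 to 30 CPM (counts per 1e6 counts), 15.5%, 42.3%, 19.2% and 40.8% had a count in IP, against 99.4% to 99.8% in the inputs. Between 100 and 300 CPM the IP shares were 63.9%, 92.6%, 65.8% and 90.6%. Both batch a libraries stayed below both batch b libraries in each bin under 1000 CPM. A locus at 0 may still have had up to 3 counts' worth of RNA, which is 1.60, 0.328, 1.10 and 0.324 CPM in the 4 IP libraries, from counting error only.

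**Figure D1:**
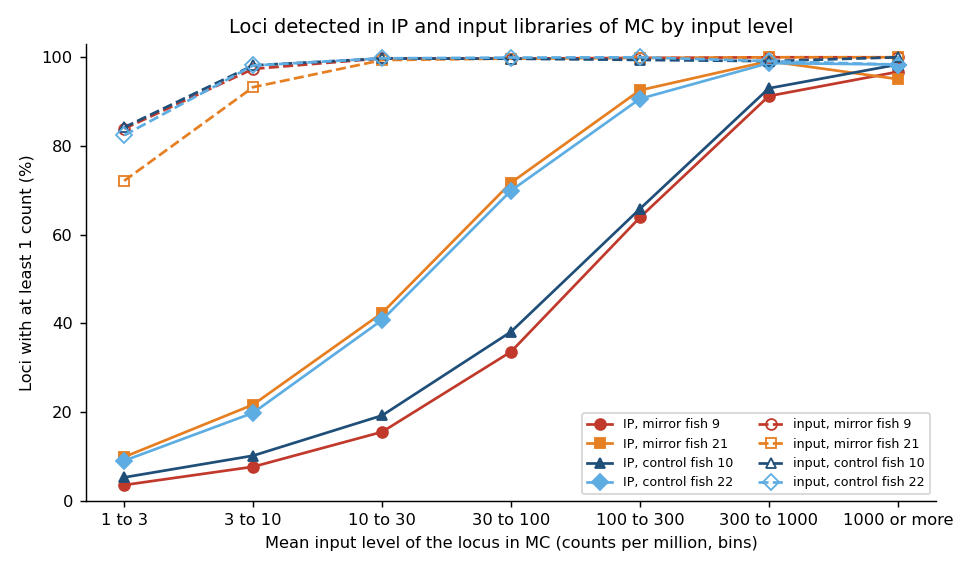
Share of loci with at least 1 count in each MC library (y axis, %), by the mean input level of the locus (x axis, CPM in bins). Filled points with solid lines are IP, open points with dashed lines input. IP detection at 10 to 30 CPM lay between 15.5% and 42.3%, and the inputs were above 99%.

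Where a scarce message was found in IP it was usually found in quantity. At 10 to 30 CPM of input, the loci detected had a median of 88, 268, 145 and 239 counts in IP, which is 47.0, 29.3, 53.4 and 25.8 CPM, against 159 to 187 counts in the inputs. Of 15800 loci that passed the filter on low counts, 2823 (17.9%) had 100 or more counts in 1 IP library and 0 in the other 3. Among the inputs there were 2 such loci, but the filter kept that number low. It asks for counts in several libraries, so a locus at 0 in 3 inputs could pass only with counts in IP libraries. The 2 loci are therefore no measure of how the inputs vary. The immediate early gene npas4, a transcription factor induced by neuronal activity, shows the pattern: it had 0, 0, 0 and 1032 counts in IP, against 131, 198, 561 and 633 in input. Accordingly the 4 IP libraries correlated weakly with each other, with a median Pearson r of 0.40 over these loci (6 pairs of libraries, log2 CPM), against 0.84 among the inputs. These correlations run across loci, which are not independent replicates.

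The make-up of the libraries differed between the fractions. Loci of the mitochondrial sequence took 2.94%, 3.68%, 4.52% and 3.16% of IP counts, against 30.6%, 29.4%, 26.2% and 21.03% of input counts. Loci matched to annotated nuclear genes took 87.1%, 80.5%, 78.9% and 79.96% in IP, against 56.5%, 55.9%, 59.7% and 66.0% in input. Each IP value lay outside the range of the inputs in both cases, with exact sign-flip p = 0.125. Both are shares of all counts, so a lower mitochondrial share raises the annotated share. Cytosolic ribosomal protein genes held 3.02%, 4.69%, 3.98% and 6.69% of IP counts, against 3.86%, 5.61%, 4.35% and 6.67% of input counts, and the fractions overlapped (exact sign-flip p = 0.25). In the IP of fish 9, loci on a pair of unplaced scaffolds held 51.8% of the counts. Their share was 5.16% to 23.9% in the other IP libraries and 6.55% to 8.18% in the inputs. Loci within introns, unannotated, run-on and other loci held only 2.33%, 4.34%, 1.16% and 2.14% of the fish 9 IP. Most of its scaffold counts therefore lie within its 87.1% of annotated nuclear loci. The higher annotated share of this fish cannot be read apart from the scaffold pair. The share of the pair was also higher in IP than in input in fish 21 (15.9% against 8.18%) and fish 10 (23.9% against 7.93%). How far it adds to the annotated share of those fish was not tested. What the scaffold loci encode is not given in the sources used here.

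**Figure D2:**
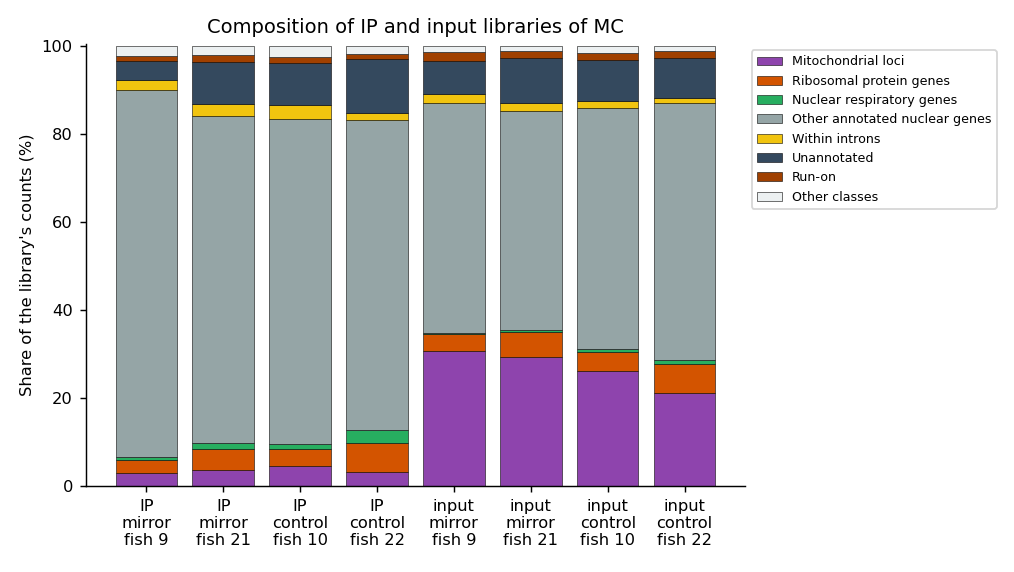
Share of each MC library's counts by class of locus (stacked bars, %, y axis), with the 4 IP libraries left of the 4 inputs. The mitochondrial share was 2.94% to 4.52% in IP and 21.03% to 30.6% in input.

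Brain markers were present in both fractions. Of 27 pan-neuronal names, 11 matched a locus and passed the filter; together they took 0.244%, 0.781%, 0.642% and 0.600% of IP counts, against 0.607%, 0.530%, 0.642% and 0.636% of input counts. Markers of photoreceptors and the pineal gland held under 0.001% of any MC input and no IP count.

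IP was tested against input with edgeR's quasi-likelihood test, with batch and condition as covariates, adjusted by Benjamini and Hochberg with a threshold of 0.05. Over the 15800 tested loci, IP was higher at 44 (0.278%) and lower at 6964 (44.1%), and the median of the log2 fold changes was -5.57. The p-values measure the residual spread between the 8 libraries, with no term for the fish, so the pairing is not used. Of the tested loci 5716 (36.2%) had 0 counts in all 4 IP libraries and passed the filter through the inputs, and only 1486 had a count in all 4. A filter that asks for 10 counts in 6 of 8 libraries left 4323 loci and 3 calls, all lower. Leaving out fish 9, 10, 21 or 22 left 2174, 1813, 4730 or 3443 calls.

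The graded comparison therefore rests on the 860 abundant loci, those with an average level above 7 on the log2 CPM scale over the 8 libraries. This average takes both fractions. A locus low in input can thus enter the set through its IP level alone, and a locus low in IP through its inputs. With the threshold at 6, 3 loci were higher and 10 lower. Of the 860 loci, 615 had counts in all 4 IP libraries, and 393 carry a gene symbol. The IP libraries still correlated weakly over the abundant loci, with a median Pearson r of 0.41, against 0.81 among the inputs. Here IP was higher at 27 loci (3.14%) and lower at 21 (2.44%), 48 in all (5.58%), around a median of -0.31 on the log2 scale. Every called locus had the same sign in all 4 fish and no overlap between IP and input libraries. Without regard to the test, 110 abundant loci (12.8%) had all IP libraries above all inputs and 158 (18.4%) had all below. In all 4 fish, 161 abundant loci (18.7%) were higher in IP and 221 (25.7%) lower. Of the 27 higher loci 19 have a symbol, and of the 21 lower loci 11 lie on the mitochondrial sequence.

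The number of calls rested on having all 4 fish. Leaving out any 1 of fish 9, 10, 21 and 22 left 0 calls by edgeR, with 201, 181, 107 and 137 loci at an unadjusted p under 0.05 in place of 222, and each batch alone also gave 0. With the fish as a block, the pairing that the labels give, 8 loci were higher and 12 lower, all 20 of them among the 48. Of the 29 called genes named below, 13 kept their call with the block, which are clip3, psmc3, hdgfl2, rnf208, sec62, atp5mf, mpz, slc1a2, aplp1, actb, ND1, ND5 and ND6; the other 16 had adjusted p-values between 0.0505 (chd2) and 0.102 (rps18), among them gpm6a with 0.0666, cnksr2 with 0.094 and s100b with 0.0954. limma-voom called 163 loci and DESeq2 339. Without the mitochondrial loci and those of the scaffold pair described above, 22 loci were higher and 8 lower.

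**Figure D3:**
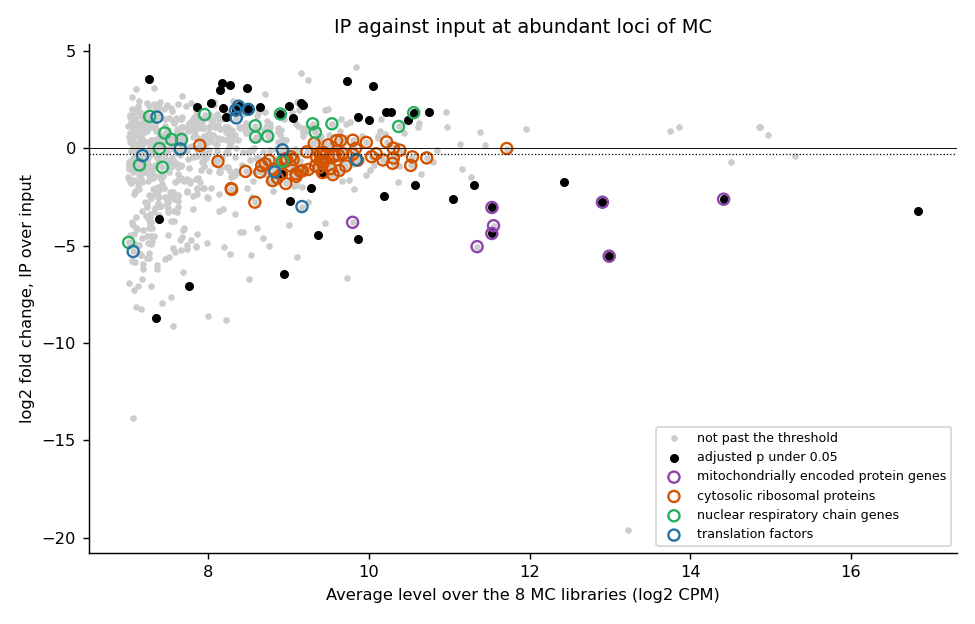
Log2 fold change of IP over input (y axis) against average log2 CPM over the 8 MC libraries (x axis) for 860 abundant loci. Black points passed the threshold (adjusted p under 0.05), coloured rings mark 4 gene groups, and the dotted line is the median of -0.31. Mitochondrially encoded genes lie well below the line, and the highest called locus reached 3.54.

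Levels below are CPM normalized within the abundant loci. Fold changes are edgeR's log2 values ± SE from that unpaired fit to the 8 libraries of 4 fish. cnksr2, a scaffold of Ras signalling at the postsynaptic membrane, had 464, 657, 307 and 336 in IP, against 45.5, 30.8, 40.4 and 30.4 in input. Its fold change was the largest of the called loci (3.54 ± 0.63, adjusted p = 0.0346), about 11.6-fold. The inputs of cnksr2 lie below the abundance threshold, so it entered the abundant set only through its IP libraries. The same holds for psmc3 and hdgfl2 below, and for anks1b, whose inputs average below the threshold. Whether it holds for other named genes was not examined. anks1b, which encodes a postsynaptic density protein, had 811, 1446, 778 and 792 in IP, against 45.8, 95.3, 186 and 172 in input (3.07 ± 0.57, adjusted p = 0.0346). The input levels of anks1b varied more between fish than its IP levels did.

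cacna1a, the pore-forming subunit of a presynaptic calcium channel, had 1607, 879, 922 and 602 in IP, against 423, 112, 406 and 117 in input (2.11 ± 0.38, adjusted p = 0.0346). Its level was higher in batch a than in batch b in the inputs, and in each fish IP was higher. gpm6a, a membrane glycoprotein of growing neurites, was the most abundant of these, with 5330.1, 4049, 2092 and 4544 in IP, against 1266, 998, 1104 and 1051 in input (1.83 ± 0.34, adjusted p = 0.0346). clip3, a linker between microtubules and membranes, had 3245, 3086, 2099 and 1467 in IP, against 216, 181, 236 and 232 in input (3.46 ± 0.34, adjusted p = 0.0171). The assembled clip3 transcripts share a splice junction with the annotated gene but are not identical to it.

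chd2, a chromatin remodeller, had 831, 2993, 2809.6 and 4157 in IP, against 268, 182, 289 and 345 in input (3.17 ± 0.45, adjusted p = 0.0221). Fish 9 had the smallest difference for chd2, and its IP was still above every input. hdgfl2, a reader of modified chromatin, had 1036, 763, 700.2 and 645 in IP, against 90.4, 112, 109.9 and 79.6 in input (2.98 ± 0.37, adjusted p = 0.0172). cwf19l2, a protein associated with splicing, had 487, 502, 688 and 554 in IP, against 156, 117, 139.6 and 115 in input (2.08 ± 0.41, adjusted p = 0.0417). Both groups were narrow for cwf19l2 and far apart.

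psmc3, an ATPase subunit of the proteasome, had 992, 380.2, 575 and 1153 in IP, against 67.8, 68.2, 78.5 and 90.9 in input (3.34 ± 0.51, adjusted p = 0.0255). rnf208, a RING finger ubiquitin ligase, had 1658, 1392, 1127 and 1507 in IP, against 299, 279, 307 and 255 in input (2.32 ± 0.26, adjusted p = 0.0171), and sec62, part of the machinery that moves proteins into the endoplasmic reticulum, rose by 2.16 ± 0.28 (adjusted p = 0.0172). upf2, a factor of nonsense-mediated decay, rose by 2.33 ± 0.39 (adjusted p = 0.033). Of the 10 genes with the highest fold change over all tested loci, gal3st3, a sulfotransferase of glycans, was the only one that is not an abundant locus, with 651, 1977, 656 and 1813 counts in IP, against 394, 187, 475 and 286 in input (log2 fold change 2.47 ± 0.78, adjusted p = 0.0429).

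**Figure D4:**
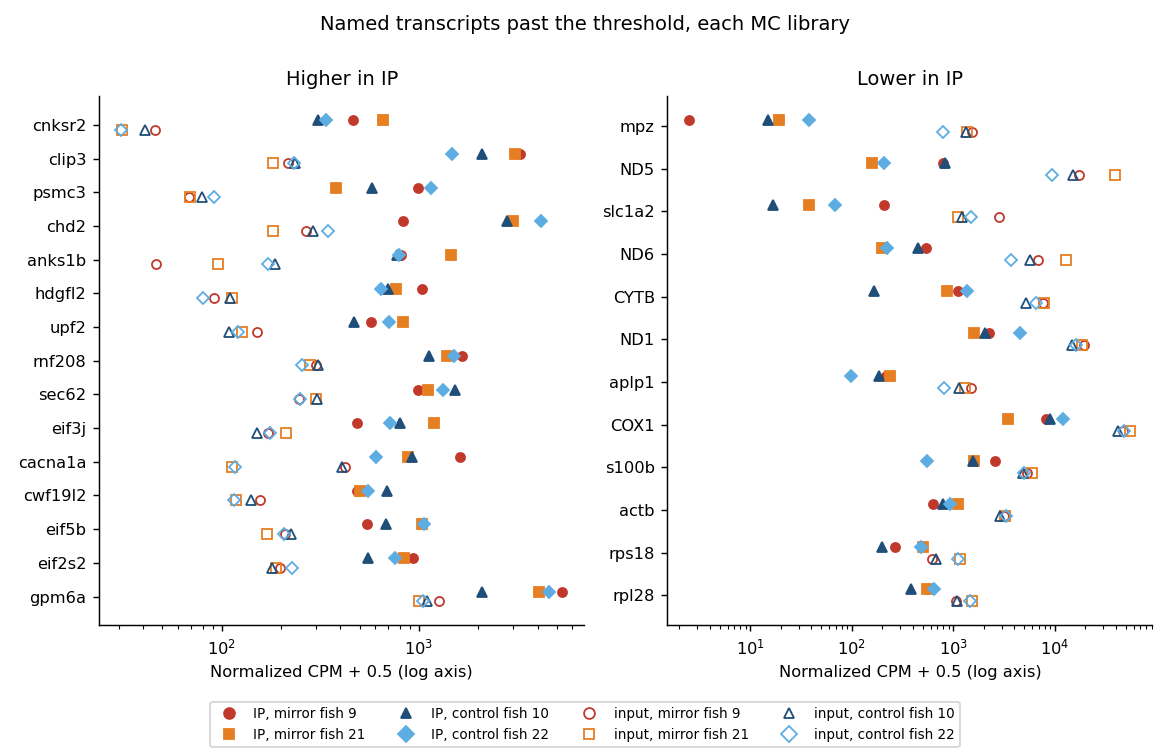
Normalized CPM + 0.5 (x axis, log scale) of the 15 named transcripts with the highest and the 12 with the lowest fold change past the threshold, in each MC library. Filled points are IP, open points input, colour and shape the fish. For cnksr2 IP lies at 307 to 657 and input at 30.4 to 45.5; for mpz IP lies at 2.02 to 37.5 and input at 794 to 1515.

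Among the messages that were lower in IP, those encoded in the mitochondrial genome formed the main block. All 8 mitochondrially encoded protein genes measured are abundant loci. Each was lower in 4 of 4 fish, as 25.7% of all abundant loci were. The test called 5 of them lower, where 2.44% of all abundant loci were. Their median log2 fold change was -3.90, against -0.31 over all abundant loci. ND5, a subunit of respiratory complex I, had 791, 159.6, 839 and 206 in IP, against 17368, 39316, 15084 and 9447 in input (-5.55 ± 0.85, adjusted p = 0.0255). COX1, a catalytic subunit of cytochrome c oxidase, had 8266, 3483, 8932 and 12074 in IP, against 47288, 55699.6, 42209 and 48623 in input (-2.62 ± 0.48, adjusted p = 0.0346). The decrease of ND5 was thus larger than that of COX1 in each of 4 fish, although the difference between the genes was not tested.

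The other called members were ND6 (-4.38 ± 0.54, adjusted p = 0.0172), CYTB (-3.05 ± 0.60, adjusted p = 0.0422) and ND1 (-2.78 ± 0.42, adjusted p = 0.0255). ND2, ND3 and ND4L had log2 fold changes of -5.06, -3.81 and -3.98 and did not pass (adjusted p = 0.102, 0.0532 and 0.0933). The ND5 locus runs from 11982 to 13820 on the plus strand of the mitochondrial sequence and the ND6 locus from 13330 to 14338 on the minus strand, so they share 491 bases. Whether the counting used strand is not given in the sources used here, and reads in that stretch cannot be assigned to one gene with certainty. An antisense locus over the mitochondrial locus APK84_gr01 had 0 counts in all 4 IP libraries, against 236985, 218959, 176351 and 1697 counts in input.

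Some messages of glia and myelin were lower. mpz, a major myelin protein of the central nervous system in fish, had 2.02, 18.6, 14.4 and 37.5 in IP, against 1515, 1353, 1343 and 794 in input (-6.46 ± 0.92, adjusted p = 0.0221), about 87.8-fold lower. slc1a2, the glutamate transporter of astroglia, had 207, 37.4, 16.2 and 68.7 in IP, against 2825, 1109.5, 1227 and 1494 in input (-4.48 ± 0.83, adjusted p = 0.0346). s100b, a calcium-binding protein of glia, had 2582, 1617, 1578 and 555 in IP, against 5385, 5923, 4848 and 5009 in input (-1.91 ± 0.39, adjusted p = 0.0458). Of 5 abundant markers of radial glia and astrocytes, s100b and slc1a2 fell and none rose, where 2.44% of all abundant loci fell and 3.14% rose. Their median was -1.91. The other members were fabp7 (-1.24, adjusted p = 0.0622), slc6a11 (-5.80, adjusted p = 0.195) and clu (-0.82, adjusted p = 0.323), and mag, another myelin gene, had -1.70 (adjusted p = 0.135). Summed over all matched loci, tested or not, the markers of radial glia and astrocytes held 0.196% to 0.237% of IP counts, against 0.520% to 0.652% of input counts. Those of oligodendrocytes and myelin held 0.00379% to 0.0639%, against 0.108% to 0.143%. The part of these shares in the other results was not tested.

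Outside these groups, aplp1, a relative of the amyloid precursor protein in neurons, had 217, 238, 184 and 97.1 in IP, against 1495, 1320.3, 1148 and 821 in input (-2.72 ± 0.31, adjusted p = 0.0171). actb, cytoplasmic actin, had 629, 1122, 791 and 927 in IP, against 3202, 3241, 2898 and 3285 in input (-1.89 ± 0.24, adjusted p = 0.0172). The actb inputs differed little between fish, and each IP library held less than any of them.

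Of 68 abundant cytosolic ribosomal protein genes, none rose and rps18 and rpl28 fell (log2 fold changes -1.34 ± 0.27 and -1.26 ± 0.24, adjusted p = 0.0458 and 0.0398). That 2 of 68 is close to the 2.44% lower among all abundant loci. In all 4 fish 31 were lower and 3 higher, where 25.7% and 18.7% of all abundant loci were. The median was -0.63, against -0.31 over all abundant loci. rps6, which encodes the protein whose phosphorylated form the antibody binds, had 749, 1023, 1529 and 923 in IP, against 726, 979, 870.1 and 1202 in input (0.16 ± 0.30, adjusted p = 0.752), so the groups overlapped. Of 12 abundant translation factors, 3 rose and none fell, where 3.14% of all abundant loci rose and 2.44% fell. Over all loci 3 of 35 tested were higher and 7 lower, where 0.278% and 44.1% of all tested loci were. The 3 that rose were eif3j (2.15 ± 0.38), eif5b, which joins the ribosomal subunits (1.99 ± 0.36), and eif2s2, a subunit of the factor that brings the initiator tRNA (1.95 ± 0.34), each with adjusted p = 0.0346. eif5a had 1.55 (adjusted p = 0.0559), and the median of the group was -0.07, or between -0.24 and 0.09 without 1 fish. That median was 0.31 in batch b alone and 0.64 over the 8 members above a log2 CPM of 8.

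Of 19 abundant nuclear genes of the respiratory chain, 2 rose and none fell, where 3.14% of all abundant loci rose and 2.44% fell. Their median was 0.78. That median lay between 0.49 (without fish 22) and 0.92 without 1 fish, and was 0.23 in batch a alone. Over all loci 2 of 44 tested were higher and 3 lower, where 0.278% and 44.1% of all tested loci were. The median of those 44 was -0.93, against -5.57 over all tested loci. atp5mf, a subunit of ATP synthase, had 2931, 2839.8, 1967 and 5345 in IP, against 645, 1103, 699 and 1308 in input (1.81 ± 0.30, adjusted p = 0.0304). ndufa1, a subunit of complex I, had 451, 1365, 1017 and 1310.2 in IP, against 221, 323, 216 and 451 in input (1.75 ± 0.33, adjusted p = 0.0352). For ndufa1 the IP of fish 9 lay just above the highest input, that of fish 22, so the groups did not overlap. atp5f1e and ndufa2 had 1.11 and 1.24 (adjusted p = 0.0598 and 0.0767). As a share of all counts the nuclear respiratory genes held 0.589%, 1.39%, 1.15% and 2.80% in IP, against 0.418%, 0.590%, 0.528% and 1.02% in input, higher in 4 of 4 fish. The lower mitochondrial share of IP, in fish 9 2.94% against 30.6% in input, raises such shares of nuclear genes. How much of the difference remains without mitochondrial counts was not tested.

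Of 8 abundant genes for splicing and RNA binding, upf2 rose and none fell, and the median of 0.87 became -0.02 without fish 10 and 0.32 without fish 22; luc7l3 and hnrnpu had 2.12 and 0.63 (adjusted p = 0.0559 and 0.369). Of 3 abundant chromatin genes chd2 and hdgfl2 rose, and chd3 had 0.77 (adjusted p = 0.422); over all loci 2 of 21 tested chromatin genes were higher and 2 lower. The only abundant proteasome gene called was psmc3, and over all loci 1 of 29 tested proteasome and ubiquitin genes was higher and 5 were lower. Among all tested loci 0.278% were higher and 44.1% lower, and among all abundant loci 3.14% rose and 2.44% fell. Of 7 abundant cytoskeletal genes actb fell and none rose (median -0.59), with tmsb4x, stmn4 and map1a at -1.07, -1.68 and -0.59 (adjusted p = 0.142, 0.311 and 0.439). Of 5 genes for secreted and membrane precursors aplp1 fell and none rose (median -2.72), with aplp2 at -5.11 (adjusted p = 0.309).

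**Figure D5:**
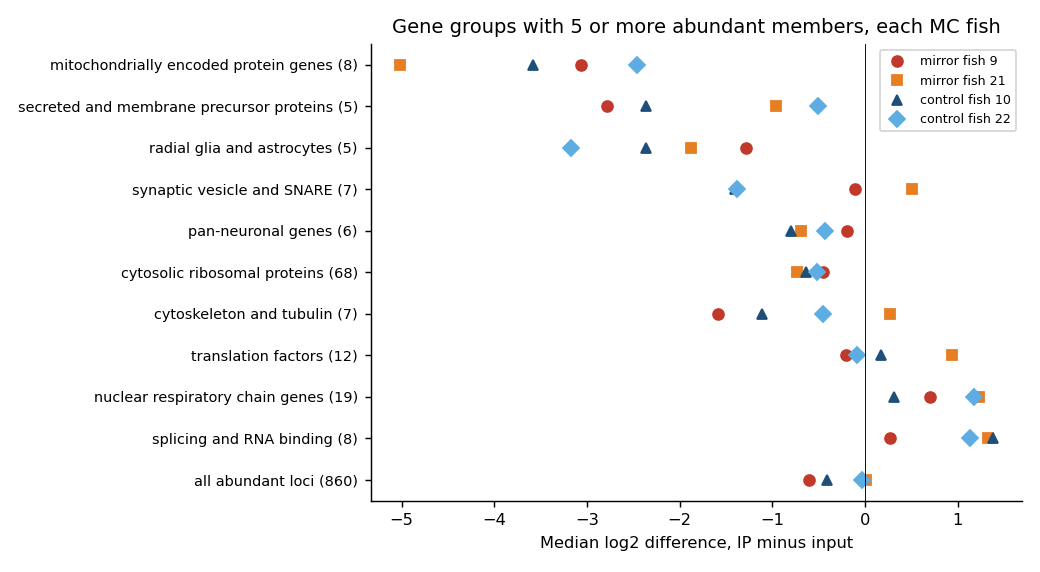
Median log2 difference of IP minus input over the abundant members of each gene group (x axis), one point per MC fish, with the number of members in brackets and all 860 abundant loci in the bottom row. The medians of the mitochondrially encoded genes lay between -5.01 and -2.46, those of the nuclear respiratory genes between 0.31 and 1.23.

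None of 6 abundant pan-neuronal genes passed the test in either direction, where 5.58% of all abundant loci did, and their median was -0.74. snap25, a SNARE protein of synaptic vesicle release, had 729, 3089, 1761 and 1517 in IP, against 5943, 4147, 5402 and 3941 in input (-1.49 ± 0.49, adjusted p = 0.13). syt1, the calcium sensor of the same machinery, had 665, 733, 966 and 569.6 in IP, against 397, 159, 314 and 364 in input (1.27 ± 0.39, adjusted p = 0.112). IP and input did not overlap for either gene, with IP lower for snap25 and higher for syt1. nefm and rtn1 had -2.06 and -1.70, and sncb 1.26 (adjusted p = 0.1, 0.174 and 0.125).

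None of 7 abundant genes of synaptic vesicles and SNAREs passed, where 5.58% of all abundant loci did. Their median was -1.23, or -1.997 without fish 21, and changed sign to 0.90 over the 4 members above a log2 CPM of 8. The smallest p was that of rab3c, a vesicle GTPase (2.02, adjusted p = 0.0698). The GABA receptor subunit gabrd had 1.90 (adjusted p = 0.103). Of the proteins of dense-core vesicles, chgb had 1.51 and cpe -0.90 (adjusted p = 0.1 and 0.186). hsp90ab1, the one abundant chaperone, had -1.37 (adjusted p = 0.0887).

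Of 21 names of immediate early genes 13 passed the filter, none of them abundant. Together they held 0.0252%, 0.0324%, 0.0274% and 0.0581% of IP counts, against 0.0238%, 0.0141%, 0.0258% and 0.0262% of input counts. This share of all counts was higher in IP in each fish, and the difference was not tested. Mitochondrial loci took 2.94% to 4.52% of IP counts, against 21.03% to 30.6% of input counts. A lower mitochondrial share raises the shares of nuclear genes, so the difference cannot be read as enrichment of these genes. None of the 13 was called higher over all loci, and 4 were called lower, where 44.1% of all tested loci were. Those 4 had 0 counts in all IP libraries and passed the filter through the inputs. fosl2 was the only one with counts in every IP library, as 9.41% of all tested loci had; its counts were 230, 976, 383 and 1488, against 300, 167, 314 and 264 in input (log2 fold change over all loci 1.88, adjusted p = 0.151). egr1 had 0, 0, 360 and 593 counts in IP, against 693, 468, 742 and 659 in input. fosb had 0, 657, 0 and 4 counts in IP, against 154, 13, 72 and 80 in input. Neither gene had IP counts in both fish of the mirror condition.

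The growth factor bdnf had 1, 0, 0 and 1 counts in IP, against 274, 61, 149 and 142 in input. It was called lower by edgeR (log2 fold change over all loci -7.14, adjusted p = 0.0105), as 44.1% of all tested loci were. It passed the filter through the inputs, so this call restates its near absence from IP. Of 8 tested neuropeptide genes 5 had 0 counts in all 4 IP libraries, among them cck and tac1, where 36.2% of all tested loci were at 0. These 5 passed the filter through the inputs, so their lower calls restate the zeros. npy had 0, 11, 234 and 549 counts in IP, against 500, 327, 509 and 1429 in input. adcyap1 had 5, 869, 635 and 2739 counts in IP, against 460, 408, 556 and 677 in input, and was the only peptide gene with counts in every IP library. gnrh1 and esr2 had 0 counts in each IP library, against at most 64 and 44 counts in an input, and were too low for the filter. No locus matched to an annotated gene carried the symbol fos, arc, avp, oxt or ar, so these genes could not be looked up by name.

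Some messages that were plentiful in every input were missing from every IP library. tspan7, a tetraspanin of the cell surface, had 0 counts in the 4 IP libraries, which hold 22997947 counts in all, against 1888, 2296, 2731 and 1970 counts in the inputs. With a limit of 3 counts over the 4 IP libraries, from counting error only, its level in IP was at least 1615-fold lower. By the same limit the lysosomal membrane protein laptm4a, with 2225, 1582, 1980 and 1758 counts in input, was at least 1376-fold lower. For lg7h18orf32, tmbim4 and cd81 it gave at least 1139-, 915- and 850.3-fold. However, 2823 of 15800 tested loci had 100 or more counts in 1 IP library and 0 in the other 3. Zeros in IP thus vary beyond counting error, and these folds are no firm bounds. tmem179, fam174b, tmem59 and ccdc32 also had 0 counts in every IP library. cd81, like tspan7, is a tetraspanin.

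Of 7 tested markers of microglia and macrophages, 6 had 0 counts in all 4 IP libraries, csf1r, ptprc and spi1 among them, against 36.2% of all tested loci; these 6 passed the filter through the inputs. Summed over the 9 matched marker loci, tested or not, the share was at most 0.00383% in IP, against 0.0479% to 0.0645% in input. cd74, the abundant one, had 20.2, 25.5, 0 and 41.7 normalized CPM in IP, against 954, 836, 787 and 522 in input (-5.42 in the test of abundant loci, adjusted p = 0.0905). Counts were 0 in all IP libraries for 5 of 10 endothelial and mural markers, 4 of 6 of fibroblasts and meninges, and olig1 and olig2 of 9 of oligodendrocytes and myelin. The summed share of all matched endothelial markers was nevertheless 0.0176% in the IP of fish 21, against 0.0159% in its input. That of all matched fibroblast markers was 0.01004% in the IP of fish 9, against 0.00898% in its input. Both are shares of all counts, which the lower mitochondrial share of IP raises. Counts were also 0 in all IP libraries for 4 of 6 monoamine genes, th, tph2, slc6a2 and slc18a2, which are neuronal. The summed share of all matched monoamine genes was nevertheless 0.0279% in the IP of fish 10, against 0.00431% in its input. In each other fish it was lower in IP. Since 36.2% of all tested loci were at 0, and low input levels go with zeros, these shares were not tested against other loci.

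The lysosomal gene psap, an abundant locus, had 12.1, 43.5, 0.44 and 3.53 normalized CPM in IP, against 553, 516, 518 and 455 in input (-6.36 ± 1.37, adjusted p = 0.0543). Of 16 tested lysosomal genes 7 had 0 counts in all 4 IP libraries, against 36.2% of all tested loci.

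Whether mirror exposure changed the difference between IP and input within MC was tested with the interaction of condition and fraction, with 2 fish per condition. No locus passed by edgeR, either among the abundant loci (0%, 23 at an unadjusted p under 0.05) or over all tested loci (0%, 668 at an unadjusted p under 0.05). limma-voom called none in either set, and DESeq2 called 21 abundant loci and 826 over all. With the fish as a block edgeR called 10 over all loci, ND2 among them (log2 difference -5.73, adjusted p = 1.67e-08), and none among the abundant ones. Leaving out fish 9, 10, 21 or 22 gave 7, 11, 13 or 7 calls over all loci, where 1 condition is left with a lone fish assumed to vary like the rest.

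ND2 had the smallest unadjusted p among abundant loci with a symbol. Its normalized CPM was 44.5 and 15.2 in the IP of mirror fish 9 and 21 and 751 and 1310.5 in the IP of control fish 10 and 22, and the inputs ranged between 5561 and 7495. The difference of the IP to input ratio, mirror minus control, was -5.37 ± 0.96 (adjusted p = 0.635). aplp2 followed, with 0 and 0.97 in the IP of mirror fish and 125 and 186 in that of control fish (-8.24 ± 1.89, adjusted p = 0.635). gapdh, slc6a11 and kiaa1211 had 8.54, 6.93 and 3.45 (adjusted p = 1 for each), and over all loci sik3, cnn1, rarg and atp6v1h had 10.17, 10.41, -10.33 and -14.01 (adjusted p = 0.488 for each). The fitted values of the genes with 0 counts in both IP libraries of a condition depend on the prior count. The locus LOC101486506 had 0 and 0 counts in the IP of mirror fish 9 and 21 and 1768 and 1400 in that of control fish 10 and 22 (adjusted p = 0.635 among abundant loci); its role is not annotated in the table.

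MC was set against PC to see where its IP differed. The PC IP libraries held 4250470 to 11186928 counts at 6323 to 10466 loci, a range that overlaps that of MC. Mitochondrial loci took 5.96% to 14.3% of PC IP counts, all above the 2.94% to 4.52% of MC, with 20.7% to 27.8% in PC inputs. Loci with 100 or more counts in 1 IP library and 0 in the other 3 numbered 2823 in MC and 1526 in PC.

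The species difference of IP enrichment, MC minus PC, was tested over all 16 libraries with 1 coefficient per group of species, condition and fraction, plus batch. Among the abundant loci 0 were higher and 15 (1.74%) lower in MC, and over 29597 tested loci 0 were higher and 11 (0.0372%) lower. ND2 had log2 differences between IP and input of -7.27, -9.04, -2.99 and -2.20 in MC fish, against -0.56 and -1.28 in PC mirror fish 12 and 23 and -0.63 and -1.76 in PC control fish 11 and 24 (difference -4.30 ± 0.51, adjusted p = 0.0103). ND1 had -3.43, -3.65, -2.90 and -1.97 in MC fish, against -0.56, 0.25, -0.94 and -0.55 in those PC fish (-2.51 ± 0.40, adjusted p = 0.0163). These 2 were the members called at abundant loci among the 8 mitochondrially encoded genes, whose median difference was -2.63, against -0.17 over all abundant loci. In the test over all loci COX1 was called as well (-2.12 ± 0.27, adjusted p = 0.0367).

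psap averaged -6.41 ± 2.31 in MC and -1.71 ± 0.35 in PC (SD, n = 4 each; difference -4.66 ± 0.92, adjusted p = 0.0426). Of 68 abundant ribosomal protein genes 4 were lower in MC and none higher, where 1.74% of all abundant loci were lower. rpl39 averaged -1.86 ± 0.82 in MC and 0.87 ± 0.43 in PC (-2.75 ± 0.44, adjusted p = 0.0163), and rps15a -1.37 ± 0.50 in MC and 0.32 ± 0.31 in PC (-1.69 ± 0.35, adjusted p = 0.0499). Over all loci laptm4a had 0 counts in every MC IP library, against 463, 1345, 294 and 586 counts in the IP of PC fish 12, 23, 11 and 24. lg7h18orf32 also had 0 in MC, against 1919, 799, 2572 and 917 in PC, and srgn, a proteoglycan of granules, had 3, 9, 0 and 0 in MC, against 709, 5091, 1630 and 1782 in PC. The adjusted p-values of the 3 genes were 0.0421, 0.0367 and 0.0367.

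These species calls depended on single fish. Among the abundant loci, leaving out MC fish 9, 10, 21 or 22 gave 12, 1, 77 or 102 calls, and leaving out PC fish 11, 12, 23 or 24 gave 0, 12, 0 or 0. With the fish as a block there were 0 calls at abundant loci (97 at an unadjusted p under 0.05) and 26 over all loci. Over all loci, leaving out MC fish 22 gave 11 calls and MC fish 10 gave 2, and leaving out any other fish of either species gave 0. The loci that rose in MC and were named above did not pass in the species test. cnksr2 averaged 3.36 ± 0.62 in MC and 2.83 ± 1.03 in PC (0.57 ± 0.77, adjusted p = 0.826), and clip3 3.29 ± 0.61 in MC and 0.80 ± 1.00 in PC (2.28 ± 0.63, adjusted p = 0.128). mpz averaged -6.72 ± 2.08 in MC and -1.36 ± 0.63 in PC (-4.95 ± 1.25, adjusted p = 0.0979), and actb -2.05 ± 0.43 in MC and -1.92 ± 0.81 in PC (-0.13 ± 0.39, adjusted p = 0.936).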

How the data were processed

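Per the labels' protocols, pS6 immunoprecipitates and inputs of single whole brains were sequenced; per the submitters' processing notes the tools were cutadapt, HISAT2, StringTie and DESeq2, for which the sources used here name no versions, genome build or strandedness. Raw counts per assembled locus were deposited by the authors for all libraries in 1 table, with 0 columns of other series. Loci lie on sequences named by accession, so positions are given only on the mitochondrial sequence.

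Loci without enough counts in a fraction were filtered (filterByExpr), and edgeR 4.0.16 (R 4.3.3) with TMM scaling fitted quasi-likelihood models with batch and condition; interactions tested mirror and species. Abundant loci (average log2 CPM above 7) were refitted alone. Adjusted p-values are Benjamini-Hochberg at 0.05; log2 differences per fish used a pseudocount of 0.5 CPM. Limits at 0 are 3 counts. Intervals and limits cover counting error only. limma 3.58.1 and DESeq2 1.42.0 served as alternatives, beside other covariates, scalings, filters, thinning, batches and left-out fish; leaving out the mitochondrial loci and the scaffold pair was chosen after seeing the data. The fits were also run on simulated counts with a capped, milder spread and without the all-or-none zeros of the IP libraries. That run does not show how the fits behave on these data.

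The genes and lists were chosen with earlier results of these data known. Named were, among loci with a symbol and 4 fish of the same sign, the 15 highest and 15 lowest past the threshold; over all loci the 10 highest, and the 10 with most input among those at 0 in IP; for mirror and species the 5 highest and 5 lowest, or the 5 smallest p-values; list members past the threshold or with the 4 smallest p-values; and single genes. Named after their values were seen were adcyap1, fosb, fosl2, LOC101486506, COX1 in the species test over all loci and the individual zero-count markers. Some genes that the rule names are not reported here. IP and input of a number come from the same animal; correlations of their deviations were 0.08 in mirror and 0.14 in control fish over 860 loci.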

Additional observations from a re-analysis of the deposited data

Results flagged for a closer look

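In 97 groups of 4 values, 7 had 1 fish far from the other 3, and chance gives about 1 in 20. Within MC, as log2 differences of IP minus input, fish 10 had -7.16 for ND3 (others -3.46 to -2.86), 0.92 for gpm6a (others 2.02 to 2.11) and -1.76 for rps18 (others -1.20 to -1.18). Fish 21 had -9.13 for ND4L (others -3.51 to -2.65) and -6.03 for ND6 (others -4.05 to -3.66). Fish 9 had -0.36 for nefm (others -2.96 to -2.58). Abundant loci held 70.7% of the input counts of fish 21, against 66.97% to 67.1% in the other inputs.

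The enrichment in IP differed between MC and PC by edgeR's test of the difference itself for several genes. Among abundant loci the difference, MC minus PC, was -4.66 for psap, -4.30 for ND2, -2.75 for rpl39, -2.51 for ND1 and -1.69 for rps15a, with adjusted p-values between 0.0103 and 0.0499. With the fish as a block, none of the abundant loci passed, and these 5 had adjusted p-values between 0.0942 (ND2) and 0.215 (psap and rps15a). Over all loci it was -4.52 for ND2, -2.66 for ND1 and -2.12 for COX1 (adjusted p = 0.0367 for each). srgn, laptm4a and lg7h18orf32 had fitted differences of -10.22, -13.26 and -13.39; the last 2 genes had 0 counts in every MC IP library, so these values depend on the prior count and are no bounds.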

How the results depend on the processing

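From counting error only, a 0 in IP bounds the level of a locus at 1.60 and 1.10 CPM in fish 9 and 10, the shallowest libraries. At equal depth IP still had fewer loci. For the 860 abundant loci the 48 calls became 20 with the fish as a replicate block, 22 with 4 groups plus batch, 80 with fraction alone, 195 with all 16 libraries, 339 by DESeq2, 163 by limma-voom, 109 at an adjusted p under 0.1, 13 and 78 with thresholds of 6 and 8 on the log2 CPM scale, 30 without the mitochondrial and scaffold loci, and 0 in batch a alone, in batch b alone and without any 1 fish (lowest and highest 0). RLE scaling, no filter, a filter of 10 counts in 6 libraries and thinning kept it within 1.5 times. Of 29 called genes named, 0 changed sign.

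Over all loci the 7008 calls became 10573 by DESeq2, 3 with 10 counts in 6 libraries, 25 in batch a alone, 127 in batch b alone, and 1813 to 4730 without 1 fish. For mirror, the 0 calls became 10 with the replicate block, 826 by DESeq2 and 7 to 13 without 1 fish over all loci, and 21 by DESeq2 at abundant loci. For MC minus PC the 11 calls over all loci became 26 with the replicate block, 3037 by DESeq2, 132 by limma-voom, 28 with no filter, 24 at an adjusted p under 0.1, 23 after thinning and 0 to 11 without 1 fish. The 15 at abundant loci became 0 with the replicate block, 9 with RLE, 112 by DESeq2, 48 by limma-voom, 27 at an adjusted p under 0.1 and 0 to 102 without 1 fish. The uncalled value of rps6, 0.16, was -0.16 in batch b alone and ranged between -0.091 and 0.28 without 1 fish. The difference in loci detected stayed between -28407.3 and -23006.2 under every setting tried. Among group medians not yet given, the pan-neuronal -0.74 and the cytoskeletal -0.59 were -1.53 and -1.501 above a log2 CPM of 8, the cytoskeletal one was -0.89 without fish 21, and the secreted and membrane -2.72 was -0.73 in batch b alone. The causes were not tested.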

Other observations

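Of 10 tested steroid and nuclear receptors 3 had 0 counts in all 4 MC IP libraries, where 36.2% of all tested loci did: nr3c1, the glucocorticoid receptor, with 609, 424, 196 and 211 counts in the inputs, and the nuclear receptors nr1d2 and rorb. nr2f2 was the only member with counts in every IP library, 717, 141, 24 and 7, against 2337, 887, 1019 and 1185 in input (edgeR over all loci, adjusted p = 0.268). Chromatin genes were mixed: of 21 tested, chd2 and hdgfl2 were higher over all loci, chd8 and hdac2 had 0 counts in all IP libraries, and ep300 had 375, 814, 257 and 2833 counts in IP, against 958, 368, 802 and 451 in input.

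Markers of excitatory and inhibitory neurons were found in some IP libraries and not in others. slc17a6, a vesicular glutamate transporter, had 56, 0, 0 and 3348 counts in IP, against 1393, 402, 964 and 955 in input. gad1, which makes GABA, had 391, 221, 0 and 1222 counts in IP, against at most 665 in an input. vim, an intermediate filament of radial glia, and flt1, a receptor of endothelial cells, each had counts in 1 IP library, 2778 in fish 22 for vim and 1328 in fish 21 for flt1, while their inputs held 158 to 290 and 68 to 99 counts. All of these genes were chosen after their values were seen.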
